A study of Mus musculus with 14 samples.

Results

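The genes described here encode the urea cycle, creatine synthesis and the breakdown of amino acids. They are a list of 49 genes chosen by name, all 49 of them present both in the table of 16821 genes that holds sgGFP, sgCul3 and sgKeap1 and in the table of 16095 genes that holds sgNrf2 and its controls. RNA was sequenced from mouse liver tumours, MYC-driven hepatocellular carcinomas edited with Cas9 and a guide RNA to a single target. The first table holds 4 tumours with a guide against GFP, a sequence that serves as control target (sgGFP, tumours 1 to 4), 3 with a guide against Cul3 (sgCul3) and 3 with a guide against Keap1 (sgKeap1). The second holds 2 tumours whose guide cut at the ETGE motif of NRF2 (sgNrf2, A and B) and 2 controls, A and B, which per the labels repeat sgGFP tumours 2 and 4. Values of a group are listed in the order of these numbers or letters. Every tumour carried MYC, and the labels give hepatocytes as the cell type. Strain, age, the way MYC and the guides were delivered, and whether tumours came from separate animals are not stated in the labels, so p-values measure the spread between these tumours only. The sgCul3 and sgKeap1 comparisons share the 4 sgGFP tumours, and the controls of sgNrf2 repeat 2 of them, so the comparisons are not independent of each other.

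Hepatocytes break down surplus amino acids: transaminases and deaminases release the nitrogen, and the urea cycle turns the resulting ammonia into urea. The cycle runs from carbamoyl phosphate through citrulline, argininosuccinate and arginine, partly in mitochondria and partly in the cytosol, and in normal liver its enzymes are richest around the portal vein. Creatine synthesis draws on the same arginine and on methyl groups from S-adenosylmethionine, and the carbon skeletons enter the citric acid cycle or gluconeogenesis. KEAP1 is the adaptor by which the CUL3 ubiquitin ligase recognises NRF2, a transcription factor, at its ETGE motif, and the study's design describes the 3 guides as means to activate NRF2.

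Between 6333025 and 12008223 reads were assigned to genes per library in the first table, and between 17819333 and 20848578 in the second. Keap1 had 462, 414 and 287 normalised reads in sgKeap1 and 599, 582, 707 and 721 in sgGFP. Cul3 had 163, 426 and 676 in sgCul3 tumours and 1372, 1247, 1202 and 935 in sgGFP tumours, so neither set of targeted tumours overlapped its controls. Of 10 NRF2 target genes looked at to check the guides, 8 were higher in sgCul3, 9 in sgKeap1 and 8 in sgNrf2. The 12 hepatocyte markers were all detected in every group. Their summed level was 181266 to 453825 normalised reads in sgGFP, 175580 to 441226 in sgCul3, 201910 and 221605 in sgKeap1 tumours 3 and 1, and 1354520 in sgKeap1 tumour 2. It was 643662 and 988817 in the controls and 427818 and 516149 in sgNrf2. By its marker sum, sgKeap1 tumour 2 stood apart in hepatocyte transcripts. Its 10 most abundant genes, of whatever kind, held 24.5% of its reads, against at most 18.04% in the other libraries of that table. Of the 8 erythroid markers, 4, 5 and 8 were lower in sgCul3, sgKeap1 and sgNrf2, and of the 8 neutrophil markers 0, 5 and 2. The 6 cholangiocyte and progenitor markers summed to 86.8 to 479 normalised reads in sgGFP, 442 to 1389 in sgCul3 and 613 to 1867 in sgKeap1, with Spp1 called higher in both guide groups and Krt19 in sgKeap1. In the second table they summed to 163 and 788 in the controls and 639.8 and 4744 in sgNrf2, without a call. Of the 6 endothelial markers Lyve1 was lower in sgCul3 and Pecam1 higher in sgNrf2. In sgNrf2 the Kupffer cell genes Clec4f and Marco were lower and the stellate cell gene Pdgfrb higher. The macrophage and Kupffer markers went both ways there, with log2 fold changes from -5.58 to 2.08. All 7 summed to 2820 and 921 normalised reads in controls A and B and to 2922 and 3223 in sgNrf2 A and B. No other macrophage, endothelial or stellate marker was called in these 3 comparisons. The lymphocyte markers present (7 in the first table, 6 in the second) summed to at most 75.0 and 105 normalised reads in any library. The part of other cells in the results below was not tested. In bulk RNA of this kind, fewer cells of a type and less RNA per cell cannot be told apart.

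All 49 genes passed the filter on low values (a mean deposited value of at least 10) and were tested with limma over the whole of each table. A gene is called here when its adjusted p, two-sided, is under 0.05. Log2 fold changes are called log2 changes below and are given with their standard error. In sgCul3 against sgGFP 5 of the 49 were called, 1 higher and 4 lower. Of all 13045 genes tested there, 2.2% were called, 1.35% higher and 0.851% lower. In sgKeap1 against sgGFP 8 were called, 2 higher and 6 lower, where 7.82% of all genes were (4.45% higher, 3.37% lower). With both guides together against sgGFP 9 were called, 1 higher and 8 lower, where 7.56% of all genes were (4.37% higher, 3.19% lower). In sgNrf2 against its controls 10 were called, 2 higher and 8 lower, where 4.41% of 13989 genes were (1.9% higher, 2.51% lower). In all, 18 of the 49 were called in at least 1 comparison and 31 in none. Ido2, called higher in each of the 4 comparisons with controls, passed the filter through the guide tumours alone, so its calls are a description. Without it 4, 7, 8 and 9 of 48 genes were called in sgCul3, sgKeap1, both guides and sgNrf2, of which 0, 1, 0 and 1 were higher.

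Groups that did not overlap at all were counted as well. Guide and control tumours did not overlap for 14 of the 49 genes in sgCul3, 13 of them lower (16.2% of all genes, 7.54% lower). They did not overlap for 11 in sgKeap1, 8 of them lower (25.8%, 12.6% lower), and for 9 with both guides together, 8 of them lower (9.23%, 4.1% lower). In sgNrf2 with 2 tumours against 2 they did not overlap for 35, 28 of them lower (64%, 30.7% lower). The median log2 change of the 49 genes was -0.49 in sgCul3, -0.18 in sgKeap1, -0.32 for both guides and -0.71 in sgNrf2, while the medians of all genes tested lay between -0.01 and 0.04. Of the 49, 35 lay below 0 in sgCul3 (48.9% of all genes did), 29 in sgKeap1 (50.5%), 30 with both guides (50.2%) and 35 in sgNrf2 (47.9%). These medians moved with single tumours. In sgKeap1 the median was -0.59 with 38 genes below 0 without sgKeap1 tumour 2, and 0.07 with 22 below 0 without sgKeap1 tumour 1. In sgCul3 it ran from -0.29 without sgCul3 tumour 1 to -0.74 without sgGFP tumour 1. For both guides the range was -0.14 without sgGFP tumour 4 to -0.53 without sgGFP tumour 1. In sgNrf2 it was -0.58 without control B and -1.15 without control A. The number called also moved with single libraries. It was 1 to 5 in sgCul3, 1 to 6 in sgKeap1 and 5 to 11 for both guides when 1 library was left out. In sgKeap1 it fell to 1 without sgKeap1 tumour 3 (2.4% of all genes were called then) and to 3 without sgGFP tumours 2 (5.15%) or 3 (3.09%), and in sgCul3 to 1 without sgCul3 tumour 1 (0.497%). In sgNrf2 it was 28 without control A (25.8% of all genes), 7 without control B (6.29%), 2 without sgNrf2 A (0.493%) and 1 without sgNrf2 B (0.413%), with the tumour left alone in its group assumed to vary like the other group.

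**Figure D1:**
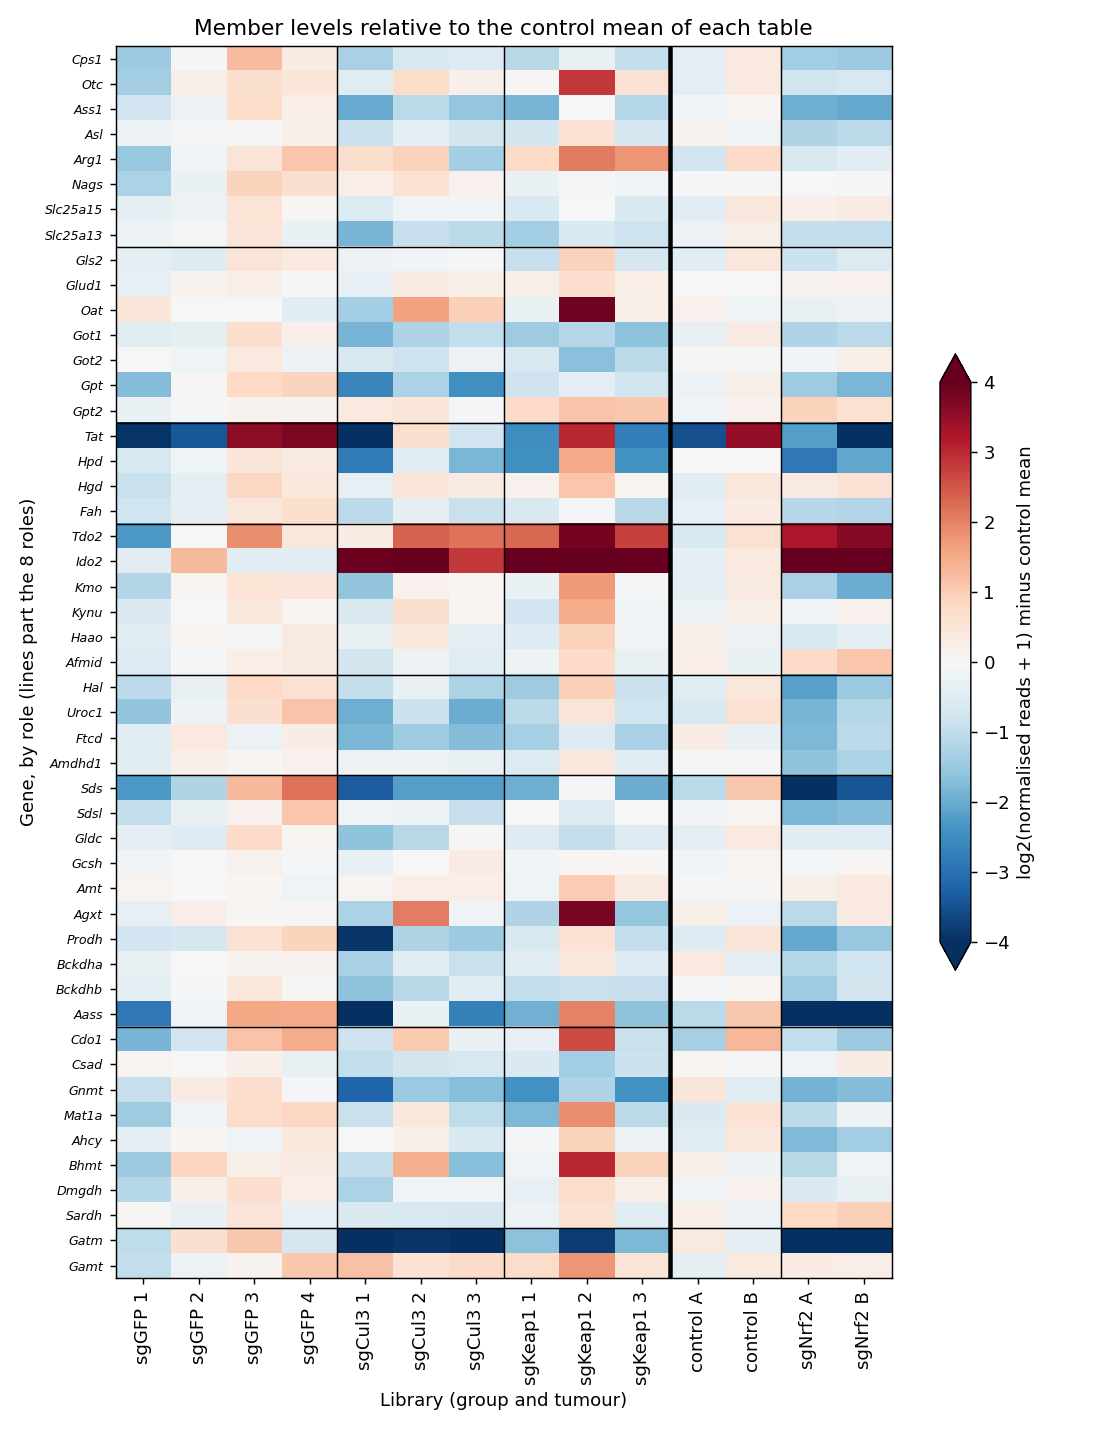
Level of each of the 49 genes in each of the 14 libraries, as log2(normalised reads + 1) minus the mean of the controls of the same table (sgGFP left of the thick line, controls A and B right of it). Genes are grouped by role and libraries by guide, and colours stop at 4 in either direction. Gatm is blue and Ido2 red in every guide library, while Tat differs between libraries of the same group and sgKeap1 tumour 2 is redder than the other sgKeap1 tumours in most rows.

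**Figure D2:**
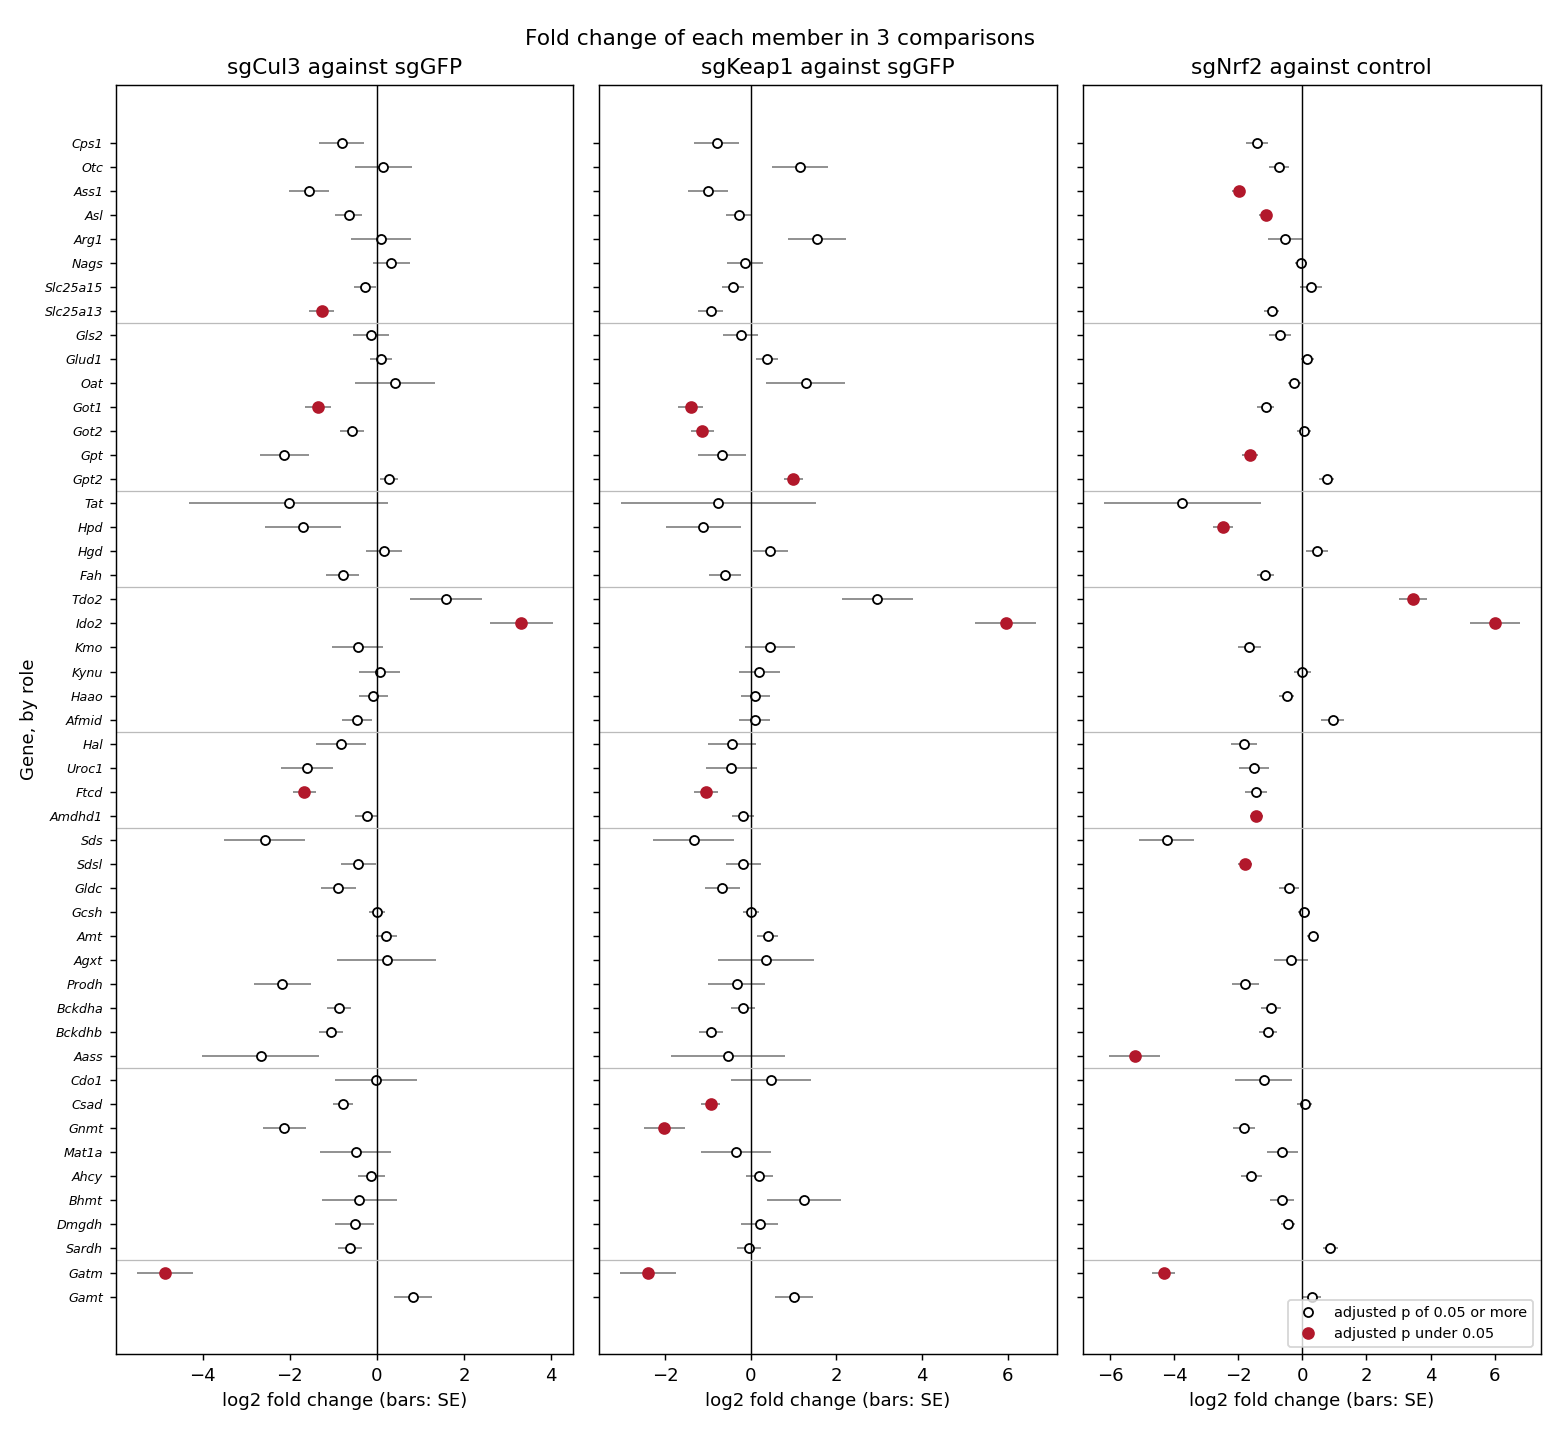
Log2 fold change with its standard error for the 49 genes in sgCul3 and sgKeap1 against sgGFP and in sgNrf2 against controls. Filled red points have a limma adjusted p under 0.05 (5, 8 and 10 genes) and open points do not. Gatm lies far to the left and Ido2 far to the right in each panel.

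The promoters of Gatm, Got1, Ftcd and Slc25a13 are printed because these are the members called lower in sgCul3. The stretches end just before the annotated start or, for Gatm, before 26 exonic bases that were left out, and are given 5′ to 3′ on the gene's strand (RefSeq, GRCm38.p6). Capitals mark an E-box, CACGTG, the site bound by MYC and related factors.
Gatm (chr2:122611304-122611527, minus strand): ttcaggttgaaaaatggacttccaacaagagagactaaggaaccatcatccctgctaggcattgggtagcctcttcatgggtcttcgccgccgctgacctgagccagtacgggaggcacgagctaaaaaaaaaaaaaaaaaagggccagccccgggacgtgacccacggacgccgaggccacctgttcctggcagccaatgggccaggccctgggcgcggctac
Got1 (chr19:43524606-43524855, minus strand): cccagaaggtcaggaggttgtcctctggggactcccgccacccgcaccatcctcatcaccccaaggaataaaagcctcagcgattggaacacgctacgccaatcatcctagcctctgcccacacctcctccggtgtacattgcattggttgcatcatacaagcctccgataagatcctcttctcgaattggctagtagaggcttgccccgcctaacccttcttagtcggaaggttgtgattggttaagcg
Ftcd (chr10:76575398-76575647, plus strand): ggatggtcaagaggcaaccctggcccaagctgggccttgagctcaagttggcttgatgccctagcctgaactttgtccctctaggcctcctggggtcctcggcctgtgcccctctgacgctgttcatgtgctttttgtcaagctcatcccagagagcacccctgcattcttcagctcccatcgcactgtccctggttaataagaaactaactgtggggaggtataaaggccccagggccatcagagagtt
Slc25a13 (chr6:6217174-6217423, minus strand): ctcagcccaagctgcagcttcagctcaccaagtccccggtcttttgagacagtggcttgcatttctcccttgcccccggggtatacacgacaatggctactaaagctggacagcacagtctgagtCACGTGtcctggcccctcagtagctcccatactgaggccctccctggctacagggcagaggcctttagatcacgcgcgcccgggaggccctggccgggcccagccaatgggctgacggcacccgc
On both strands, 3 motifs were searched in the 250 bases before each start: the core of the antioxidant response element (TGACNNNGC, which NRF2 binds), the E-box and the cyclic AMP element (TGACGTCA). The first and the last of these share their leading TGAC. The antioxidant core occurred in 10.2% of all 32851 windows and in 2 of the 41 windows that matched 38 of the 49 genes (4.88%), those of Bckdhb and Prodh. The E-box occurred in 6.02% of all windows and in 3 of the 41 (7.32%), those of Ass1, Slc25a13 and Slc25a15. In Slc25a13 it lies at positions -125 to -120 counted from the start. The cyclic AMP element occurred in 1.55% of all windows and in 0 of the 41. These are matches of letters in short windows only.

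Of the 8 genes of the urea cycle and its carriers, Slc25a13 was lower in sgCul3 and Ass1 and Asl were lower in sgNrf2, and 0 of the 8 were called in sgKeap1. None was called higher in these 3 comparisons. Per kilobase of exon, Arg1, Ass1 and Cps1 were among the 6 highest of the 49 genes in sgGFP, at 5781 ± 3677, 3730.4 ± 1596 and 3438 ± 2327 normalised reads per kilobase (SD, n = 4). Sds (3647 ± 3851), Gnmt (3384 ± 1433) and Hpd (2510.0 ± 838) were the others, and the 6 did not differ from their neighbours in this order beyond their spread. The median log2 change of the 8 was -0.47 in sgCul3, -0.35 in sgKeap1 and -0.84 in sgNrf2.

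Cps1 (chromosome 1, 67123026 to 67231259 on GRCm38) makes carbamoyl phosphate, the entry to the cycle. It had 5704, 14845, 36528 and 19309 normalised reads in sgGFP, 6386, 10079.8 and 10975 in sgCul3 and 7237, 12645 and 8111 in sgKeap1. Both guide groups lay within the sgGFP range, and the log2 changes were -0.81 ± 0.52 (adjusted p = 0.46) and -0.79 ± 0.52 (adjusted p = 0.33). In the second table Cps1 had 27798 and 48739.8 in the controls and 14353 and 13556 in sgNrf2, 2 groups that did not overlap but whose difference did not pass, -1.40 ± 0.34 (adjusted p = 0.080). Nags makes the N-acetylglutamate that switches CPS1 on. Its levels were 181, 369.8, 822 and 690.0 in sgGFP, 526, 660.2 and 499 in sgCul3, 369, 428 and 411 in sgKeap1, 889.5 and 953 in the controls and 924 and 869.7 in sgNrf2, with log2 changes of 0.33 ± 0.42, -0.14 ± 0.42 and -0.04 ± 0.19, and the guide tumours lay within or close to the range of their controls.

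Otc, which joins carbamoyl phosphate to ornithine, had 658, 2096, 2696 and 2453 normalised reads in sgGFP, 1232, 2865 and 2008 in sgCul3 and 1811, 12268 and 2629 in sgKeap1. The high value belongs to sgKeap1 tumour 2. The controls had 4076 and 7118 and sgNrf2 A and B 3108 and 3473, and the fold changes of Otc did not pass (adjusted p of 0.94, 0.26 and 0.20 in sgCul3, sgKeap1 and sgNrf2). Slc25a15, the mitochondrial ornithine carrier, ranged from 1330.5 to 2592 in sgGFP, with 1212, 1552 and 1616 in sgCul3 and 1141, 1725 and 1157 in sgKeap1, levels that overlapped. It had 2624 and 4917 in the controls and 4142 and 4554 in sgNrf2, where the groups overlapped too.

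Ass1 (ENSMUSG00000076441.9, chromosome 2, 31470207 to 31520672) condenses citrulline with aspartate. In sgNrf2 A and B it had 4167 and 3911 normalised reads against 14857 and 17243 in the controls, means of 4039 ± 181 against 16049.8 ± 1687 (SD, n = 2 and 2) and a log2 change of -1.99 ± 0.20 (SE, limma adjusted p = 0.029). In the first table it had 4953, 7184, 13885 and 9999 in sgGFP, 2067, 3953 and 2871 in sgCul3 and 2289.9, 8516 and 3805 in sgKeap1. All sgCul3 values were below all sgGFP values, but the log2 changes did not pass: -1.55 ± 0.46 (adjusted p = 0.12) in sgCul3 and -1.0 ± 0.46 (adjusted p = 0.18) in sgKeap1. Asl (chromosome 5, 130011258 to 130029247) splits argininosuccinate into arginine and fumarate. It had 2857 and 3096 in sgNrf2 against 7208 and 5996 in the controls, a log2 change of -1.14 ± 0.19 (adjusted p = 0.048). Its levels of 3010.4, 3410.0, 3589 and 4069 in sgGFP stood above 1912, 2745 and 2100.2 in sgCul3 and overlapped 2102, 5222 and 2198 in sgKeap1, without a call. Ass1 missed the threshold without sgNrf2 tumours A or B (adjusted p = 0.14, and 7.7e-15 to 0.14 over its 12 alternatives). Asl missed the threshold without sgNrf2 tumours A or B, after quantile normalization, with totals set equal or with edgeR (adjusted p of 0.056 to 0.35, and 0.00012 to 0.35 over its 12 alternatives).

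Arg1, which releases urea and ornithine from arginine, had 3716, 9756, 15014 and 23029 normalised reads in sgGFP, 17168, 20152 and 4142 in sgCul3 and 18421, 44629.6 and 36030.2 in sgKeap1. Within sgGFP the levels spanned a 6.197-fold range, and the highest of all 10 libraries were sgKeap1 tumours 2 and 3. Controls had 18716 and 53498 and sgNrf2 20329.7 and 23308, and its log2 changes of 0.09 ± 0.68, 1.55 ± 0.68 and -0.54 ± 0.54 did not pass. Slc25a13 (ENSMUSG00000015112.15, chromosome 6, 6041218 to 6217173), the citrin carrier that brings aspartate out of mitochondria for the cycle, had 2168, 2364, 3594 and 2089.8 in sgGFP, 689, 1317 and 1217 in sgCul3 and 974, 1636 and 1401 in sgKeap1. All 6 guide tumours were below all 4 sgGFP tumours. Group means stood at 1206 ± 333 against 2554 ± 703 for both guides against sgGFP (SD, n = 6 and 4), a log2 change of -1.10 ± 0.24 (limma adjusted p = 0.023). In sgCul3 alone it was -1.27 ± 0.29 (adjusted p = 0.049) and in sgKeap1 alone -0.93 ± 0.29 (adjusted p = 0.070). In sgCul3 Slc25a13 missed the threshold without sgGFP tumours 1, 2, 3 or 4, without sgCul3 tumours 1, 2 or 3, with the added 1 removed, with low genes kept in, with the minimum mean raised to 50, with edgeR or with these 2 groups fitted by themselves (adjusted p of 0.050 to 0.21, and 0.0025 to 0.21 over its 17 alternatives). For both guides Slc25a13 missed the threshold without sgGFP tumours 2 or 3 (adjusted p of 0.052 to 0.080, and 0.00092 to 0.080 over its 19 alternatives). In sgNrf2 it had 2678 and 2613 against 4395 and 6027, a log2 change of -0.96 ± 0.22 (adjusted p = 0.074), not called.

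**Figure D3:**
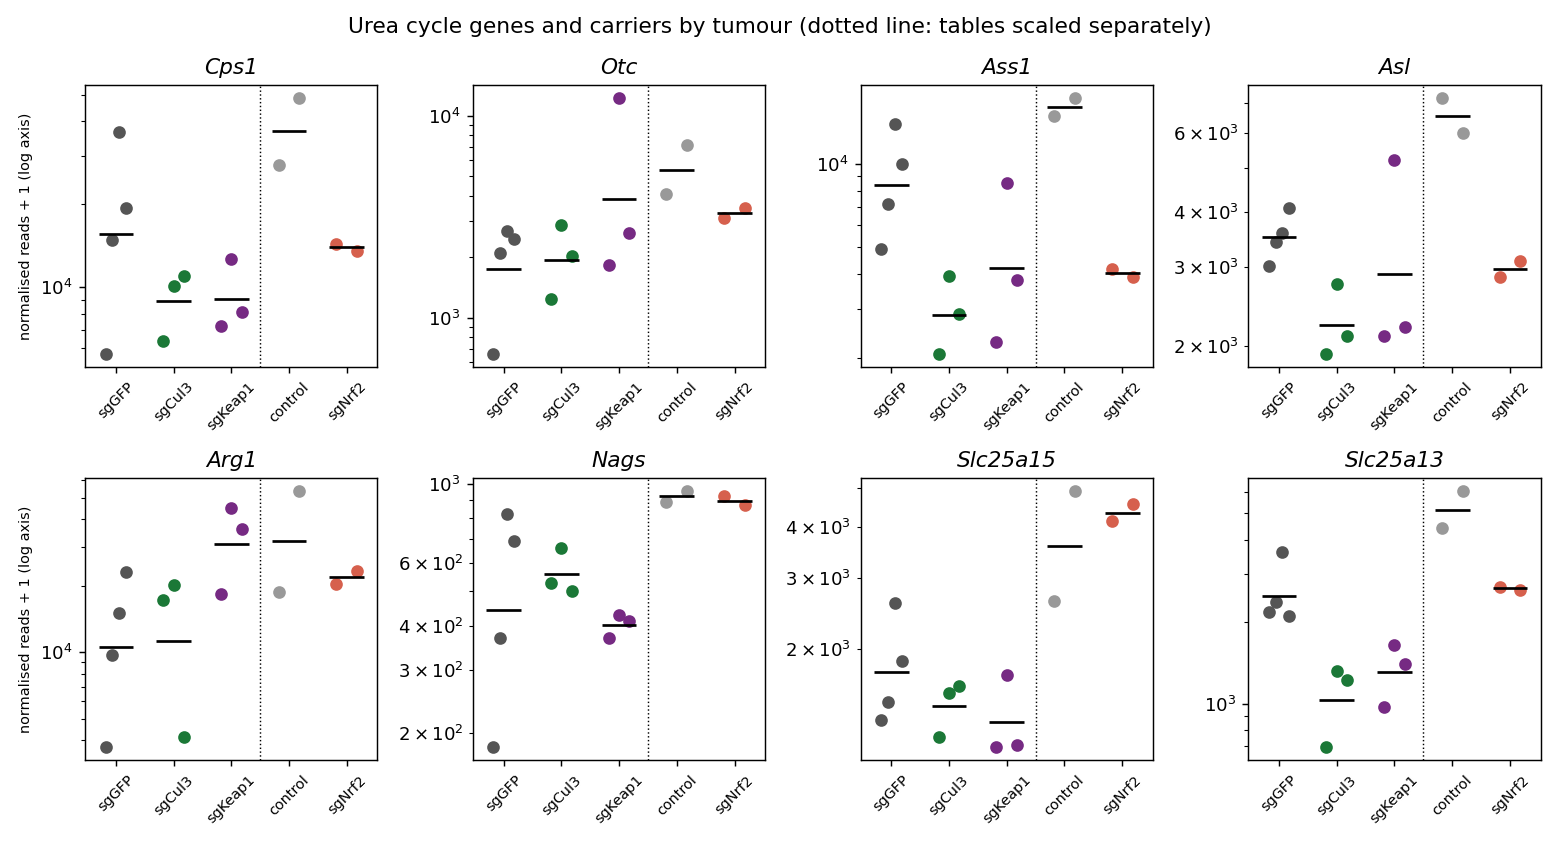
Normalised reads plus 1 on a log axis for the 8 urea cycle genes and carriers, 1 point per tumour, with the mean of the log values as a bar. The tables either side of the dotted line were scaled separately, so levels are to be compared within a side only. Slc25a13 and Ass1 in sgCul3, and Ass1 and Asl in sgNrf2, lie below their controls, while Arg1 and Otc spread over several-fold within groups.

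Of the 2 genes of creatine synthesis, Gatm was lower in each comparison with controls and Gamt was called in none. Gatm (ENSMUSG00000027199.14, chromosome 2, 122594467 to 122611303) encodes the amidinotransferase that makes guanidinoacetate, the committed step of creatine synthesis, from arginine and glycine. It had 649.7, 2029, 2781 and 800.1 normalised reads in sgGFP against 33.2, 87.7 and 26.6 in sgCul3 and 423, 93.2 and 378 in sgKeap1. It had 3121 and 1893 in the controls against 96.4 and 149 in sgNrf2. No guide tumour reached the lowest of its controls, and sgKeap1 tumour 2, the library richest in hepatocyte transcripts, had the lowest Gatm of the 3 sgKeap1 tumours.

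The log2 change of Gatm was -4.87 ± 0.65 in sgCul3 (SE, means of 49.2 ± 33.6 against 1565 ± 1019, SD, n = 3 and 4, limma adjusted p = 0.0045). It was -2.40 ± 0.65 in sgKeap1 (means of 298 ± 179 against 1565 ± 1019, n = 3 and 4, limma adjusted p = 0.047). It was -4.33 ± 0.36 in sgNrf2 (means of 123 ± 37.5 against 2507 ± 868, n = 2 and 2, limma adjusted p = 0.024). In sgCul3 Gatm kept its call in all alternatives (17 of 17, adjusted p of 4.4e-13 to 0.026), and in sgNrf2 it kept its call in all alternatives (12 of 12, adjusted p of 4.1e-23 to 0.045). In sgKeap1 Gatm missed the threshold without sgGFP tumours 2, 3 or 4, without sgKeap1 tumours 2 or 3, with edgeR or with these 2 groups fitted by themselves (adjusted p of 0.051 to 0.18, and 0.0019 to 0.18 over its 17 alternatives). Set directly against each other, the 3 sgKeap1 tumours were all above the 3 sgCul3 tumours in Gatm, a log2 difference of 2.47 ± 0.69 that did not pass with limma (adjusted p = 0.36) or edgeR. DESeq2 called it (adjusted p = 0.016, in a range of 0.016 to 0.68 over the alternatives). Gamt, which methylates guanidinoacetate to creatine, had 448 to 1871 normalised reads in sgGFP (median 867), 1992, 1321 and 1500.5 in sgCul3 and 1489, 3020.3 and 1258 in sgKeap1. Its log2 changes were 0.83 ± 0.44 (adjusted p = 0.36) and 1.0 ± 0.44 (adjusted p = 0.16), and 0.29 ± 0.31 (adjusted p = 0.55) in sgNrf2. The values of the 2 steps thus differed in sign in each comparison with controls. Between sgKeap1 and sgCul3 both were above 0, with Gamt at 0.17. Blocked by tumour number, the log2 change of Gamt for both guides passed (adjusted p = 0.047, against 0.14 without the block).

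Of the 7 genes of glutamine, glutamate and ornithine metabolism and the transaminases, Got1 was lower in sgCul3 and sgKeap1, Got2 was lower and Gpt2 higher in sgKeap1, and Gpt was lower in sgNrf2. Got1 (ENSMUSG00000025190.13, chromosome 19, 43499752 to 43524605), the cytosolic aspartate transaminase, had 1354, 1503, 2949 and 2219 normalised reads in sgGFP, 525, 813 and 956 in sgCul3 and 707, 861 and 618 in sgKeap1. All 6 guide tumours were below all 4 sgGFP tumours. Group means were at 747 ± 161 against 2006 ± 733 for both guides against sgGFP (SD, n = 6 and 4), a log2 change of -1.38 ± 0.25 (SE, limma adjusted p = 0.0092), and for both guides Got1 kept its call in all alternatives (19 of 19, adjusted p of 1.2e-05 to 0.034). The separate values were -1.36 ± 0.30 (adjusted p = 0.045) in sgCul3 and -1.40 ± 0.30 (adjusted p = 0.020) in sgKeap1. In sgCul3 Got1 missed the threshold without sgGFP tumours 2, 3 or 4, without sgCul3 tumours 1 or 2, with the minimum mean raised to 50, with edgeR or with these 2 groups fitted by themselves (adjusted p of 0.050 to 0.20, and 0.00100 to 0.20 over its 17 alternatives), and with the tumour number as a block its adjusted p was 0.065. In sgKeap1 Got1 missed the threshold without sgGFP tumour 3 or without sgKeap1 tumour 3 (adjusted p of 0.051 to 0.091, and 0.00029 to 0.091 over its 17 alternatives). In sgNrf2 A and B Got1 had 1729 and 1886 against 3195 and 5002 in the controls, -1.15 ± 0.27 (adjusted p = 0.074), without a call.

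Got2 (chromosome 8, 95864134 to 95888547), the mitochondrial aspartate transaminase, had 4059, 3643, 5414 and 3494 normalised reads in sgGFP, 2606, 2305 and 3447 in sgCul3 and 2606, 1285 and 1944 in sgKeap1. All 6 guide tumours were again below the sgGFP tumours, though sgCul3 tumour 3 was close to sgGFP tumour 4. Its log2 change was -1.13 ± 0.27 (adjusted p = 0.032) in sgKeap1, -0.57 ± 0.27 (adjusted p = 0.31) in sgCul3 and -0.85 ± 0.23 (adjusted p = 0.047) for both guides. In sgKeap1 Got2 missed the threshold without sgGFP tumours 1, 2 or 3 or without sgKeap1 tumours 2 or 3 (adjusted p of 0.052 to 0.12, and 0.0029 to 0.12 over its 17 alternatives). For both guides Got2 missed the threshold without sgGFP tumours 1, 2, 3 or 4, without sgCul3 tumours 1 or 2, without sgKeap1 tumours 2 or 3, with low genes kept in, after quantile normalization, with totals set equal or with edgeR (adjusted p of 0.051 to 0.15, and 0.0076 to 0.15 over its 19 alternatives). In the second table Got2 had 8554 and 7938 in the controls and 7683 and 9638 in sgNrf2, groups that overlapped.

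Gpt2 (chromosome 8, 85492576 to 85527560), the mitochondrial alanine transaminase, had 2413, 2781, 3204 and 3210.2 normalised reads in sgGFP, 3755, 4063 and 2791 in sgCul3 and 4856, 6412 and 6131 in sgKeap1. The sgKeap1 tumours were above all others of that table, with means of 5799.6 ± 829.1 against 2902 ± 383 (SD, n = 3 and 4) and a log2 change of 1.0 ± 0.21 (SE, limma adjusted p = 0.020). In sgKeap1 Gpt2 missed the threshold without sgGFP tumour 1, without sgKeap1 tumours 2 or 3 or with totals set equal (adjusted p of 0.050 to 0.087, and 0.00013 to 0.087 over its 17 alternatives). It had 11250.5 and 8991 in sgNrf2 against 5323 and 6656 in the controls, 0.76 ± 0.23 (adjusted p = 0.11), not called. Gpt (chromosome 15, 76695716 to 76699686), the other alanine transaminase, had 1757 and 1336 in sgNrf2 against 4029 and 5594 in the controls, -1.63 ± 0.26 (adjusted p = 0.045), lower. In sgNrf2 Gpt missed the threshold without control B or without sgNrf2 tumours A or B (adjusted p of 0.054 to 0.21, and 7.0e-06 to 0.21 over its 12 alternatives). In sgCul3 Gpt had 312, 815 and 356 against 596, 2019.9, 3414 and 3680.1 in sgGFP, -2.13 ± 0.56 (adjusted p = 0.082), without a call. Glud1 (glutamate dehydrogenase), Gls2 (glutaminase) and Oat (ornithine transaminase) were called in none, and their log2 changes lay between -0.71 and 1.28 in the 3 comparisons with controls. The upper end is Oat in sgKeap1, where sgKeap1 tumour 2 had 17244 normalised reads and the other 2 tumours 947 and 1346.

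Of the 6 genes of tryptophan breakdown, Tdo2 was higher in sgNrf2, and Ido2 had almost no reads in the controls and some in every guide tumour. Both encode dioxygenases that open the indole ring of tryptophan and start the kynurenine pathway; TDO2 is the main hepatic enzyme. Ido2 (ENSMUSG00000031549.15, chromosome 8, 24531892 to 24576333) was close to undetected in the controls. It had 0, 2.301, 0 and 0 normalised reads in sgGFP, a total of 3 reads, and 1.08 and 2.53 in the controls, again 3 reads. In guide tumours it had 19.3, 60.3 and 8.601 in sgCul3, 87.4, 424 and 85.1 in sgKeap1 and 93.2 and 317 in sgNrf2. The highest values were sgKeap1 tumour 2 and sgNrf2 B, and no guide tumour overlapped its controls. As Ido2 passed the filter on low values through the guide tumours alone, its adjusted p-values are given below without weight.

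The ratio of Ido2 to its controls, with a 95% interval for counting error only, was 49.8 (16.5 to 246) in sgCul3, 261 (88.6 to 1271) in sgKeap1 and 115 (39.1 to 559.9) in sgNrf2. The fitted log2 changes depend on the added 1 and were 3.32 ± 0.71 (adjusted p = 0.042), 5.94 ± 0.71 (adjusted p = 0.00098) and 6.0 ± 0.78 (adjusted p = 0.039). Deposited values of sgCul3, sgKeap1 and sgGFP already held an added 1 before the fit added another, and those of sgNrf2 and its controls did not. The fitted value of sgNrf2 is therefore not to be compared with the other 2. In sgCul3 Ido2 missed the threshold without sgGFP tumours 1, 2, 3 or 4, without sgCul3 tumours 1 or 2, with a pseudocount of 5, with the minimum mean raised to 50 or with these 2 groups fitted by themselves (adjusted p of 0.062 to 0.14, and 0.00013 to 0.14 over its 17 alternatives). In sgNrf2 Ido2 missed the threshold without control B, without sgNrf2 tumours A or B or with the minimum mean raised to 50 (adjusted p of 0.052 to 0.11, and 1.5e-07 to 0.11 over its 12 alternatives).

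Tdo2 (ENSMUSG00000028011.16, chromosome 3, 81957090 to 81976202) had 10116 and 13439 normalised reads in sgNrf2 against 707 and 1615 in the controls. Group means were at 11778 ± 2349 against 1161 ± 642 (SD, n = 2 and 2), a log2 change of 3.45 ± 0.43 (SE, limma adjusted p = 0.036). In sgNrf2 Tdo2 missed the threshold without sgNrf2 tumour B (adjusted p = 0.085, and 1.5e-11 to 0.085 over its 12 alternatives). It had 93.1, 451, 1671 and 626 in sgGFP, 558, 2334 and 2056 in sgCul3 and 2256, 6533 and 3087 in sgKeap1, and all sgKeap1 tumours were above all sgGFP tumours. These differences did not pass, at 1.59 ± 0.83 (adjusted p = 0.36) in sgCul3 and 2.95 ± 0.83 (adjusted p = 0.052) in sgKeap1. For both guides Tdo2 had an adjusted p of 0.071, and 0.025 with the tumour number as a block. Afmid, whose product makes kynurenine, and Kmo, Kynu and Haao, which carry it on towards NAD, were called in none. Their log2 changes lay between -0.46 and 0.45 in the first table, and between -1.65 (Kmo) and 0.95 (Afmid) in sgNrf2.

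Of the 4 genes of tyrosine breakdown, Hpd was lower in sgNrf2 and none was called in sgCul3 or sgKeap1. Hpd (chromosome 5, 123171807 to 123182727), the 4-hydroxyphenylpyruvate dioxygenase, had 1386 and 2401 normalised reads in sgNrf2 against 10318 and 9988 in the controls, a log2 change of -2.48 ± 0.30 (SE, means of 1894 ± 718 against 10153 ± 233, SD, n = 2 and 2, limma adjusted p = 0.036). In sgNrf2 Hpd missed the threshold without control B or without sgNrf2 tumours A or B (adjusted p of 0.054 to 0.10, and 6.5e-10 to 0.10 over its 12 alternatives). It had 3261, 4495, 7132 and 6478 in sgGFP, 732, 3725 and 1429 in sgCul3 and 928, 14741 and 973 in sgKeap1. Tumours 1 and 3 of sgKeap1 were below all sgGFP tumours and tumour 2 above them all, and the log2 change was -1.10 ± 0.87 (adjusted p = 0.42). Fah, which makes the last cleavage, and Hgd, which opens the homogentisate ring, had log2 changes of -0.79 ± 0.38 and 0.16 ± 0.41 in sgCul3, -0.59 ± 0.38 and 0.46 ± 0.41 in sgKeap1 and -1.15 ± 0.27 and 0.45 ± 0.34 in sgNrf2, without a call.

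Tat, the tyrosine transaminase, varied more between control tumours than between groups. It had 39.8, 58.3, 7351 and 8397 normalised reads in sgGFP, 8.29, 969.5 and 364 in sgCul3, 109.5, 4980.5 and 90.9 in sgKeap1, 134 and 18001 in the controls and 334 and 39.3 in sgNrf2. Levels within sgGFP spanned a 211-fold range, with tumours 3 and 4 high and 1 and 2 low. No comparison called it (adjusted p of 0.70, 0.85 and 0.35 in sgCul3, sgKeap1 and sgNrf2).

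All 4 genes of histidine breakdown had log2 changes below 0 in sgCul3, sgKeap1 and sgNrf2, with Ftcd lower in sgCul3 and sgKeap1 and Amdhd1 lower in sgNrf2. Without sgKeap1 tumour 1, Hal and Amdhd1 in sgKeap1 turned to 0.05 and 0.01 (adjusted p of 0.97 and 0.98). Ftcd (ENSMUSG00000001155.13, chromosome 10, 76575648 to 76590338) passes the formimino group of histidine to tetrahydrofolate. It had 2073, 3758, 2398 and 3484 normalised reads in sgGFP, 796, 1066 and 845 in sgCul3 and 1122, 1982 and 1166 in sgKeap1, so that no guide tumour reached the lowest sgGFP tumour. Group means were at 902 ± 144 against 2928 ± 818 in sgCul3 against sgGFP (SD, n = 3 and 4), a log2 change of -1.66 ± 0.27 (SE, limma adjusted p = 0.013). The value was -1.05 ± 0.27 (adjusted p = 0.043) in sgKeap1 and -1.36 ± 0.23 (adjusted p = 0.0072) for both guides. For both guides Ftcd kept its call in all alternatives (19 of 19, adjusted p of 6.5e-06 to 0.026). In sgCul3 Ftcd missed the threshold without sgCul3 tumour 1 (adjusted p = 0.077, and 3.9e-06 to 0.077 over its 17 alternatives). In sgKeap1 Ftcd missed the threshold without sgGFP tumours 2, 3 or 4, without sgKeap1 tumours 1 or 3, with edgeR or with these 2 groups fitted by themselves (adjusted p of 0.055 to 0.14, and 0.0089 to 0.14 over its 17 alternatives). The controls had 8141 and 5455 and sgNrf2 A and B 1898 and 3186, -1.44 ± 0.34 (adjusted p = 0.078), without a call.

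Amdhd1 (chromosome 10, 93523338 to 93540033), the imidazolonepropionase, had 955 and 1207 normalised reads in sgNrf2 against 2809 and 3026 in the controls, a log2 change of -1.44 ± 0.20 (SE, limma adjusted p = 0.042). In sgNrf2 Amdhd1 missed the threshold without control B or without sgNrf2 tumours A or B (adjusted p of 0.052 to 0.25, and 5.6e-06 to 0.25 over its 12 alternatives). It had 817, 1303, 1169 and 1262 in sgGFP, 967, 980.1 and 902 in sgCul3 and 759, 1524 and 837 in sgKeap1, levels that overlapped. Hal (histidase) and Uroc1 (urocanase), the first steps of the pathway, had log2 changes of -1.82 ± 0.40 and -1.51 ± 0.48 in sgNrf2 and of -0.44 to -1.60 in sgCul3 and sgKeap1, without a call.

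Of the 10 genes that break down serine, glycine, proline, lysine and branched-chain amino acids, Sdsl and Aass were lower in sgNrf2 and 0 were called in sgCul3 or sgKeap1 alone. Sdsl (chromosome 5, 120458186 to 120472810), a relative of serine dehydratase, had 324 and 341 normalised reads in sgNrf2 against 1074 and 1228 in the controls, a log2 change of -1.79 ± 0.21 (SE, limma adjusted p = 0.034). In sgNrf2 Sdsl missed the threshold without sgNrf2 tumours A or B (adjusted p of 0.14 to 0.18, and 1.3e-08 to 0.18 over its 12 alternatives). Its levels were 340.0, 543, 764 and 1441 in sgGFP, 604, 589 and 352 in sgCul3 and 660.3, 472 and 685 in sgKeap1, which overlapped. Sds (chromosome 5, 120476526 to 120483932), serine dehydratase, whose gene lies beside Sdsl, had 174 and 508 in sgNrf2 against 2648 and 11779 in the controls. Its log2 change of -4.23 ± 0.86 did not pass (adjusted p = 0.061), and the controls themselves differed several-fold. In the first table Sds had 659.8, 1420.0, 8017 and 14616 in sgGFP, 319, 706 and 701 in sgCul3 and 838, 3095 and 819.6 in sgKeap1, with sgGFP tumours 3 and 4 far above tumours 1 and 2.

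Aass (chromosome 6, 23072173 to 23132986), which starts lysine breakdown, had 41.3 and 83.04 normalised reads in sgNrf2 against 1044 and 4739.7 in the controls, -5.22 ± 0.79 (adjusted p = 0.044). In sgNrf2 Aass missed the threshold without sgNrf2 tumours A or B or with edgeR (adjusted p of 0.050 to 0.073, and 1.8e-13 to 0.073 over its 12 alternatives). It ranged over 21.3-fold within sgGFP and was called in no comparison of the first table. Bckdhb (chromosome 9, 83925145 to 84124240), a subunit of the branched-chain ketoacid dehydrogenase, had 466, 589, 820.2 and 635 in sgGFP, 200.3, 284 and 446 in sgCul3 and 315, 328 and 323 in sgKeap1. All 6 guide tumours were below the sgGFP tumours, and the log2 change for both guides was -0.99 ± 0.23 (adjusted p = 0.027). For both guides Bckdhb missed the threshold without sgGFP tumours 2, 3 or 4, without sgCul3 tumours 1 or 2 or without sgKeap1 tumour 3 (adjusted p of 0.053 to 0.10, and 0.0022 to 0.10 over its 19 alternatives). In sgNrf2 Bckdhb had 531 and 864 against 1334 and 1516, -1.07 ± 0.29 (adjusted p = 0.094). The partner subunit Bckdha had log2 changes of -0.88 ± 0.27 in sgCul3, -0.17 ± 0.27 in sgKeap1 and -0.97 ± 0.32 in sgNrf2, without a call. Gldc, Gcsh and Amt of the glycine cleavage system, Agxt and Prodh were called in none. Gcsh had the narrowest values, with log2 changes of 0.0 ± 0.18, 0.01 ± 0.18 and 0.04 ± 0.19, while Prodh (proline dehydrogenase) had -2.18 ± 0.66 (adjusted p = 0.12) in sgCul3 and -1.78 ± 0.42 (adjusted p = 0.075) in sgNrf2.

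Of the 8 genes of cysteine, methionine and methyl-group metabolism, Gnmt and Csad were lower in sgKeap1, and 0 were called in sgCul3 or sgNrf2. Gnmt (ENSMUSG00000002769.8, chromosome 17, 46725664 to 46729168), which uses up S-adenosylmethionine by methylating glycine, had 1978, 4765, 6029 and 3551 normalised reads in sgGFP, 412, 1357 and 1152 in sgCul3 and 709, 1639.9 and 701 in sgKeap1. All 6 guide tumours were below the sgGFP tumours. Group means were at 1017 ± 539.8 against 4081 ± 1729 in sgKeap1 against sgGFP (SD, n = 3 and 4), a log2 change of -2.01 ± 0.49 (SE, limma adjusted p = 0.034). In sgCul3 the value was -2.12 ± 0.49 (adjusted p = 0.051), and 0.019 was the adjusted p with the tumour number as a block. For both guides it was -2.07 ± 0.41 (adjusted p = 0.014). In sgKeap1 Gnmt missed the threshold without sgGFP tumours 2, 3 or 4 or without sgKeap1 tumours 1 or 3 (adjusted p of 0.053 to 0.12, and 0.00088 to 0.12 over its 17 alternatives). For both guides Gnmt missed the threshold without sgGFP tumour 3 (adjusted p = 0.056, and 2.5e-05 to 0.056 over its 19 alternatives). In the second table Gnmt had 1834 and 2028 in sgNrf2 against 9559.5 and 4847 in the controls, -1.82 ± 0.36 (adjusted p = 0.058), without a call.

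Csad (chromosome 15, 102176999 to 102204724), which makes hypotaurine from cysteine sulfinate, had 3325, 3066, 3514 and 2507 normalised reads in sgGFP, 1565, 1864 and 1969.6 in sgCul3 and 2078, 1198 and 1698 in sgKeap1, again with all 6 guide tumours below the sgGFP tumours. The log2 change was -0.93 ± 0.22 (adjusted p = 0.032) in sgKeap1, -0.78 ± 0.22 (adjusted p = 0.10) in sgCul3 and -0.85 ± 0.19 (adjusted p = 0.021) for both guides. In sgKeap1 Csad missed the threshold without sgGFP tumours 1, 2 or 3, without sgKeap1 tumours 2 or 3, with totals set equal or with these 2 groups fitted by themselves (adjusted p of 0.052 to 0.11, and 0.0027 to 0.11 over its 17 alternatives). For both guides Csad missed the threshold without sgGFP tumours 1, 2 or 3, without sgCul3 tumour 1 or with totals set equal (adjusted p of 0.053 to 0.079, and 0.00054 to 0.079 over its 19 alternatives). In sgNrf2 it had 5356 and 7431 against 6303 and 5728 in the controls, groups that overlapped. Cdo1, which makes the cysteine sulfinate, had log2 changes of -0.02 ± 0.94 in sgCul3, 0.48 ± 0.94 in sgKeap1 and -1.21 ± 0.88 in sgNrf2. Mat1a, Ahcy, Bhmt, Dmgdh and Sardh, which make and recycle S-adenosylmethionine and its products, were called in none. Among these 5, the lowest log2 change was Ahcy in sgNrf2 (-1.59 ± 0.34 (adjusted p = 0.065)) and the highest Bhmt in sgKeap1 (1.24 ± 0.85 (adjusted p = 0.35)).

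**Figure D4:**
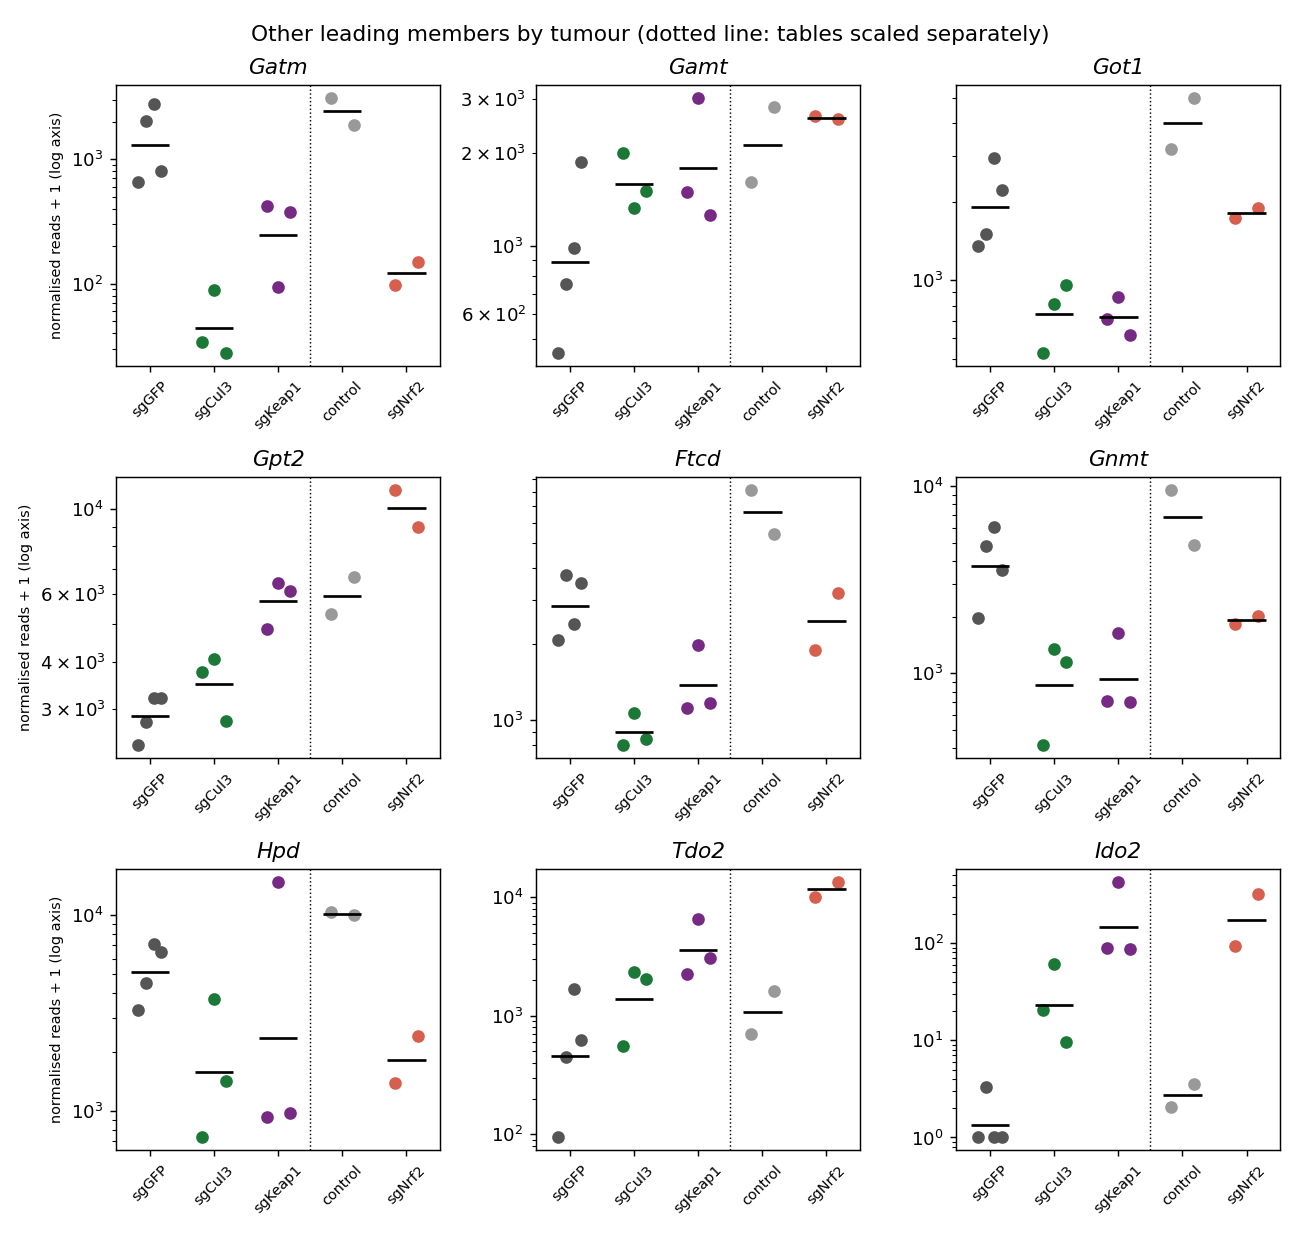
Normalised reads plus 1 on a log axis for 9 other genes, 1 point per tumour, with the mean of the log values as a bar; the tables either side of the dotted line were scaled separately. Gatm, Got1, Ftcd and Gnmt are lower and Ido2 is higher in every guide tumour than in any control of the same table, and Tdo2 and Gpt2 are higher than controls in every sgKeap1 and sgNrf2 tumour.

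Between sgKeap1 and sgCul3 tumours, 0 of the 49 genes were called (0.0613% of all genes tested were). At an unadjusted p under 0.05 there were 6 (Gatm, Ido2, Gpt2, Prodh, Gpt and Bckdha), all higher in sgKeap1, or 12.2% against 10.1% of all genes. EdgeR called 0 and DESeq2 called 1, Gatm. Of the 49, 43 had a higher mean log2 level in sgKeap1 than in sgCul3, and 6 a lower one (50.2% of all genes). Without sgKeap1 tumour 2 the higher ones were 25 of 49, and the median log2 difference moved from 0.38 to 0.04.

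Many of the 49 genes ranked the tumours of a group alike. Within sgGFP, tumour 1 was the lowest of the 4 for 41 of the 49 genes, where it was the lowest for 28.5% of all genes tested. Within sgKeap1, tumour 2 was the highest of the 3 for 43 genes (37.1% of all genes), and within sgCul3 tumour 2 was the highest for 35 (30.3%). Tumour 2 of sgCul3 and of sgKeap1 also had the highest hepatocyte marker sum of its group, and sgGFP tumour 1 the lowest. The other extremes did not match. In sgGFP, tumour 3 was the highest for 26 genes (24.4% of all genes), but tumour 4 had the highest marker sum. Tumour 1 was the lowest for 33 genes in sgCul3 (29.7%) and for 29 in sgKeap1 (33.2%), but tumour 3 had the lowest marker sum in both groups. The sums of tumours 3 and 1 were close, at 175580 and 179552 in sgCul3 and 201910 and 221605 in sgKeap1, so their order is hardly decided. The median SD of log2 levels between tumours of a group, over genes with a mean of at least 100, was 0.64 for members against 0.32 for all genes in sgGFP, 0.49 against 0.30 in sgCul3 and 0.67 against 0.32 in sgKeap1.

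Controls A and B offer a repeat measurement of sgGFP tumours 2 and 4 in the second table. Over the 49 genes, the log2 ratio of tumour 4 to tumour 2 in the first table and of B to A in the second had a Pearson correlation of 0.88 and a Spearman correlation of 0.73, and 38 genes had the same sign. These are correlations across genes of the same 2 tumours, and genes are not independent replicates. Over all 12903 genes tested in both tables the correlations were 0.81 and 0.68, and 9412 genes had the same sign. Tat had log2 ratios of 7.15 and 7.06, Sds 3.36 and 2.15, Cdo1 2.26 and 2.68 and Aass 1.68 and 2.18. For these genes, which have the largest ratios, the difference between the 2 tumours was measured again in the repeat libraries. Gatm had -1.34 and -0.72, in the opposite direction. Smaller differences did not all return: Sdsl had 1.41 and 0.19, Nags 0.90 and 0.10, and Bckdha 0.12 and -0.77.

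**Figure D5:**
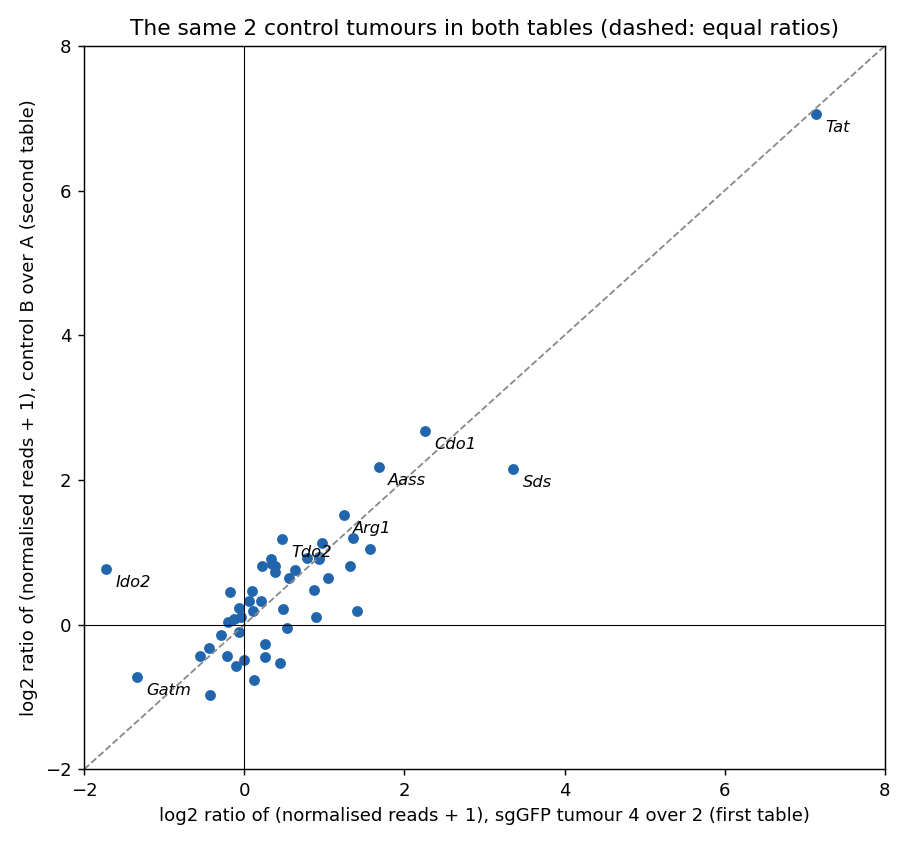
Log2 ratio of sgGFP tumour 4 over tumour 2 (horizontal) and of control B over control A (vertical), for the 49 genes, on normalised reads plus 1; the dashed line marks equal ratios. Tat lies at the upper right at 7.15 and 7.06, most other genes lie between -1 and 2 on both axes, and Ido2, with 3 reads in either control group, lies away from the line.

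Other genes of these pathways were counted from lists chosen by name. Of all genes tested, 2.2% were called in sgCul3, 7.82% in sgKeap1, 7.56% for both guides and 4.41% in sgNrf2. The lists are short, so their counts are a description and not a result about these pathways. Of 39 further amino acid catabolism genes tested in each table, 0 were higher and 1 was lower in sgCul3 (Dhtkd1), 2 in sgKeap1 (Qprt, Ivd), 4 for both guides and 0 in sgNrf2. Qprt, which takes the kynurenine pathway into NAD, had 796 ± 161 against 1876 ± 206 normalised reads in sgKeap1 against sgGFP (SD, n = 3 and 4), a log2 change of -1.25 ± 0.19 (adjusted p = 0.0033). Ivd, of leucine breakdown, had -0.83 ± 0.22 (adjusted p = 0.046) in sgKeap1, and Dhtkd1, of lysine breakdown, -1.60 ± 0.33 (adjusted p = 0.038) in sgCul3. Of 12 genes of arginine, ornithine and creatine use tested in the first table, Slc25a29, a mitochondrial carrier of basic amino acids, was lower in sgKeap1, -2.26 ± 0.38 (adjusted p = 0.0066), and Azin1, the antizyme inhibitor, was higher, 1.12 ± 0.29 (adjusted p = 0.042). In sgCul3 0 of the 12 were called, and in sgNrf2 0 of 13. Of 7 pericentral and ammonia-fixing genes tested in the first table, Slc1a4 and Cyp1a2 were higher in sgKeap1, 3.72 ± 0.62 (adjusted p = 0.0063) and 4.88 ± 1.33 (adjusted p = 0.048), and 0 were called in sgCul3. Cyp1a2 had 1578 ± 2596 against 9.68 ± 6.14 reads, an SD larger than its mean. Of 7 periportal genes, Aldh1b1 was lower in sgKeap1, -1.05 ± 0.22 (adjusted p = 0.018), and 0 were called in sgCul3 or sgNrf2. Of 16 transcription factors of hepatocyte metabolism, Creb3l3 and Ppara were lower in sgCul3, -1.38 ± 0.28 (adjusted p = 0.034) and -1.60 ± 0.34 (adjusted p = 0.042), and 0 were called in sgKeap1 or sgNrf2. Of the 12 hepatocyte markers, 0 were called in sgCul3, 1 was lower in sgKeap1 (Fga) and 0 were called in sgNrf2, with median log2 changes of -0.27, 0.09 and -0.70.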

How the data were processed

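Total RNA of the tumours was extracted with a Qiagen kit and made into libraries with an Illumina kit, per the labels' protocols. The authors deposited 2 tables of a signal, gene counts from HTSeq scaled by DESeq, per the submitters' processing notes, which also name Picard and mm10; no aligner, annotation release or version is given in the sources used here. In the first table the authors' values carry an added 1. In the second, 4 rows that name no gene held 65.3%, 66.8%, 52.4% and 54.0% of the scaled counts of control A, control B, sgNrf2 A and sgNrf2 B and were left out. All deposited values (100%) proved whole multiples of a step fixed for each library (tolerance 0.1 reads), so reads were recovered. Levels are given without the added 1.

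Members and lists were chosen with earlier results of these data known. Groups come from the labels. Genes whose deposited values averaged 10 or more were tested in limma 3.58.1 (R 4.3.3) on log2(value + 1), with a mean-variance trend, two-sided, Benjamini-Hochberg adjusted over all genes, within each table. The method was run on simulated counts with known changes, the same dispersion for all genes and libraries drawn independently. In the tumours the median spread of the members was larger than that of all genes. The simulation is therefore no measure of how reliable their calls are. Fold changes are on this scale and understate changes of low genes. Alternatives were a pseudocount of 5, the added 1 removed, no filter, a minimum mean of 50, equal totals, quantile normalization, the recovered reads in edgeR 4.0.16 (quasi-likelihood) and DESeq2 1.42.0, a block for tumour number, 2 groups alone, and each library left out. Deviations of same-numbered tumours correlated at 0.164, 0.175 and 0.314 in sgGFP and sgCul3 and at 0.239, 0.518 and 0.098 in sgCul3 and sgKeap1. They correlated at 0.199, 0.0425 and -0.0941 in sgGFP and sgKeap1 and at -0.000641 in controls and sgNrf2. The block assumes that these numbers pair tumours, but the labels do not say what they stand for. As the assumption comes from the same data, blocked adjusted p-values add no support to a call. Blocked values appear beside the calls they change in sgCul3 and for both guides, and in the closing section for sgKeap1 and sgNrf2. They are an alternative only, and the calls are those without the block. The block drops sgGFP tumour 4. Positions are those of GENCODE M21 (GRCm38), which holds all 49 gene IDs. Intervals cover counting error only. Values in every tumour were given for 22 genes: the 15 with the smallest adjusted p of the 18 called in any comparison, the 6 with the highest level per kilobase in sgGFP and the urea cycle group. Gpt, Aass and Tat, and some uncalled genes, were added after their values were seen.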

Additional observations from a re-analysis of the deposited data

Results flagged for a closer look

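Ido2 in sgGFP tumour 2 stood apart from the other 3 sgGFP tumours: it had 2.30 normalised reads, which are 3 reads, against 0 in each of the others. The 4 tumours of sgGFP were looked at in this way for 49 genes, of which chance alone would flag about 1 in 20, and 1 value was far from the rest. A count of 3 reads is at the floor of what these libraries can show.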

How the results depend on the processing

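No gene of the 49 that was called in a comparison changed sign in any alternative run. The number called in sgCul3 (5) was 2 with a minimum mean of 50 (1.57% of all genes), 3 with edgeR (1.89%), 13 with DESeq2 (1 higher, 12 lower; 7.15%), 2 with the 2 groups tested alone (1.3%) and 1 to 5 without 1 library. In sgKeap1 (8) it was 10 after quantile normalization (8.22%), 6 with edgeR (7.35%), 11 with DESeq2 (16.6%) and 6 with the 2 groups tested alone (6.81%). It was 1 to 6 there without 1 library, and 3 without sgGFP tumour 3, all of them higher. For both guides (9) it was 13 with DESeq2 (15.9%) and 5 to 11 without 1 library. In these first-table comparisons DESeq2 gave an adjusted p for 48 of the 49 genes. The number for both guides also moved with the tumour left out. It was 5 without sgGFP tumours 2 (4.63%) or 3 (3.02%), and 11 without sgCul3 tumour 3 (11.9%) or sgKeap1 tumour 2 (5.41%). Between sgKeap1 and sgCul3 (0) it was 1 with DESeq2 (0.803%) and 0 without any 1 library. In sgNrf2 (10) it was 26 with DESeq2 (4 higher, 22 lower; 18.9%), 28 without control A, 2 without sgNrf2 A and 1 without sgNrf2 B, a range of 1 to 28. The cause of these shifts was not tested. With the replicate number as a block the counts were 5, 12, 11, 0 and 15 in sgCul3, sgKeap1, both guides, sgKeap1 against sgCul3 and sgNrf2 (1.78%, 13.6%, 9.29%, 0.069% and 4.88% of all genes). The deviations of same-numbered tumours correlated at 0.199, 0.0425 and -0.0941 in sgGFP and sgKeap1 and at -0.000641 in controls and sgNrf2. Whether the numbers pair tumours was not tested. Under the block sgKeap1 gained Slc25a13, Gamt, Tdo2 and Bckdhb (adjusted p = 0.024, 0.048, 0.016 and 0.039), and sgNrf2 gained Sds, Hal, Ahcy, Prodh, Uroc1 and Gnmt (adjusted p = 0.011, 0.029, 0.038, 0.038, 0.041 and 0.0495) and lost Asl (adjusted p = 0.066). Setting totals equal moved the median log2 fold change of all genes to -0.20 in sgKeap1, -0.23 between sgKeap1 and sgCul3 and 0.34 in sgNrf2, beside medians of the 49 genes of -0.38, 0.14 and -0.41. The median of the 49 kept its sign under all scalings; that of the 7 transaminase and glutamate genes in sgNrf2 did not (0.05 with equal totals), nor did that of the 8 cysteine and methionine genes in sgKeap1 (-0.06 and -0.12 after quantile normalization and with equal totals, against 0.08) or of the 6 tryptophan genes in sgCul3 (0.02, 0.01 and 0.03 with edgeR, DESeq2 and equal totals, against -0.01) and for both guides (-0.01 with equal totals, against 0.07). With 2 tumours a group, sgNrf2 values have the least support, and Ido2 in controls is limited by a depth that gave 3 reads.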
